A study of Mus musculus with 8 samples.

Results

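The insulin-like growth factor binding proteins (IGFBPs) are secreted proteins that bind the insulin-like growth factors IGF1 and IGF2 outside the cell. They lengthen the life of the growth factors in tissue fluid and either withhold them from the receptor Igf1r or release them near it, often after a protease has cut the binding protein. In peripheral nerve and ganglia, IGF1 and IGF2 are known to act on neurons, glia and vessel cells. The genes described here are the 6 whose symbol is Igfbp followed by a number from 2 to 7 (Igfbp2, Igfbp3, Igfbp4, Igfbp5, Igfbp6 and Igfbp7), of 9229 genes in the deposited values. They were chosen by name, not by level.

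The cells came from dorsal root ganglia of C57BL/6 mice aged 21 to 30 days, with the ganglia of 4 mice pooled for each sample. All cells were labelled alive with antibody against proteasome subunit β5 and sorted as positive or negative for the neuronal membrane proteasome (NMP), and no group was left unlabelled. The 8 samples, 4 NMP-positive and 4 NMP-negative, carry 1 library name per sorted population in their descriptions and differ there only in a lane number, so they were not counted as replicates. The only values are 1 table of 20 cell clusters, each set against all other cells without regard to sorting, so no binding protein gene could be compared between NMP-positive and NMP-negative cells.

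For each pair of gene and cluster, the authors' deposited table gives an average log2 fold change, cluster over all remaining cells, and the share of cells with the transcript on both sides. Every listed pair had an absolute log2 fold change of at least 0.25, a p-value of at most 0.01 and a share of cells of at least 10% on 1 side, so a pair that is not listed can be close to the other cells or rare. A pair is called higher or lower here when the deposited adjusted p was under 0.05, by the sign of the fold change. The p-values treat cells as replicates and the clusters were defined on the same cells, so a call is a filter and not a test. Depth and cell number per cluster are not in the table, so shares carry no confidence interval, and a share of a few percent was not read as expression.

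The authors named 10 clusters as neurons, 3 as Low.UMI and 7 as Unknown. Marker lists gave the Unknown clusters working names. All 8 endothelial markers were higher in Unknown.1 (endothelial-like), all 8 satellite glia markers in Unknown.2 (satellite-glia-like), and all 6 mural markers in the table in Unknown.3 (mural-like, the contractile cells of vessel walls). Unknown.4 had 8 of 8 markers of myelinating Schwann cells higher (Schwann-like). Unknown.5 had 8 of 8 fibroblast markers and 4 of 6 perineurial markers higher, and Unknown.6 had 7 of 8 fibroblast markers higher; both are called fibroblast-like. Unknown.488p had 9 of 9 macrophage markers higher (macrophage-like), although S100a9 and S100a8, known from neutrophils, led its genes. The labels call the cells somatosensory neurons, and in the 10 named neuron clusters 3 to 9 of 10 neuron markers were higher, while the Unknown clusters, with 30.7% of all cells, had all 10 lower. Neuron markers were still in 1.8 to 71.8% of the cells of Unknown clusters (median 9.95% over 70 listed pairs), and markers of other cells were listed in neurons as well. In the named neuron clusters, satellite glia markers were in 0.7 to 99.8% of cells (median 12.65% over 38 listed pairs) and endothelial markers in 0 to 88.1% (median 3.5% over 39). Single markers ranged widely: Fabp7 was in 1.3 to 1.7% of the cells of the 2 neuron clusters that list it, and the myelin gene Mbp in 2.8 to 98.4% of the cells of 8. Low shares of a binding protein gene outside its leading clusters have to be read beside those values; the part of free RNA in them was not tested. Igfbp5, Igfbp6 and Igfbp7 are themselves among the 10 leading genes of Unknown.5 or Unknown.1, so their fold changes there describe those clusters and support nothing about them.

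The members differed in their leading clusters but shared many of them. Igfbp7 and Igfbp3 had their largest fold changes in endothelial-like cells, Igfbp4, Igfbp5 and Igfbp6 in the fibroblast-like cluster Unknown.5, and Igfbp2 was called higher in 1 neuron cluster, CGRP-e. All 4 clusters with Igfbp7 higher, and both with Igfbp6 higher, also had Igfbp4 higher, and the 1 cluster with Igfbp3 higher, Unknown.1, had Igfbp4 and Igfbp7 higher too. Of the 120 pairs of member and cluster, 79 were listed, 17 were higher, 44 were lower and 18 passed no call. The percentage of pairs higher was 14.2% for the members and 10.6% for all genes of the table, and the percentage lower was 36.7% against 15.9%. Both percentages depend on how often a gene was listed, and the members were listed more often than all genes together (56694 of 184580 pairs). Of listed pairs alone, 21.5% were higher for the members against 34.6% for all genes, and 55.7% were lower against 51.9%. Listed member pairs had a median log2 fold change of -0.66, against -0.30 over all listed pairs.

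The higher calls were mostly outside the neurons. In the 7 Unknown clusters 15 of 42 pairs were higher (all genes, 10.2%) and 12 were lower (27.1%). In the 10 named neuron clusters 2 of 60 pairs were higher (10.9%) and 22 were lower (6.72%). Of these 22 lower pairs, 5 had the transcript in more cells than outside. In the 3 Low.UMI clusters 0 of 18 pairs were higher (10.9%) and 10 were lower (20.6%). The name Low.UMI points to few transcripts counted per cell. Of all genes called lower in each of these 3 clusters, 0% were detected in more cells than outside. The part of depth in the lower calls there was not tested. Unknown.5 had 4 members higher (all genes, 9.67%), and Unknown.1 (18%), Unknown.3 (8.05%) and Unknown.6 (7.39%) had 3 each. Unknown.4 had 0 members higher and 4 lower (26.4%).

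**Figure D1:**
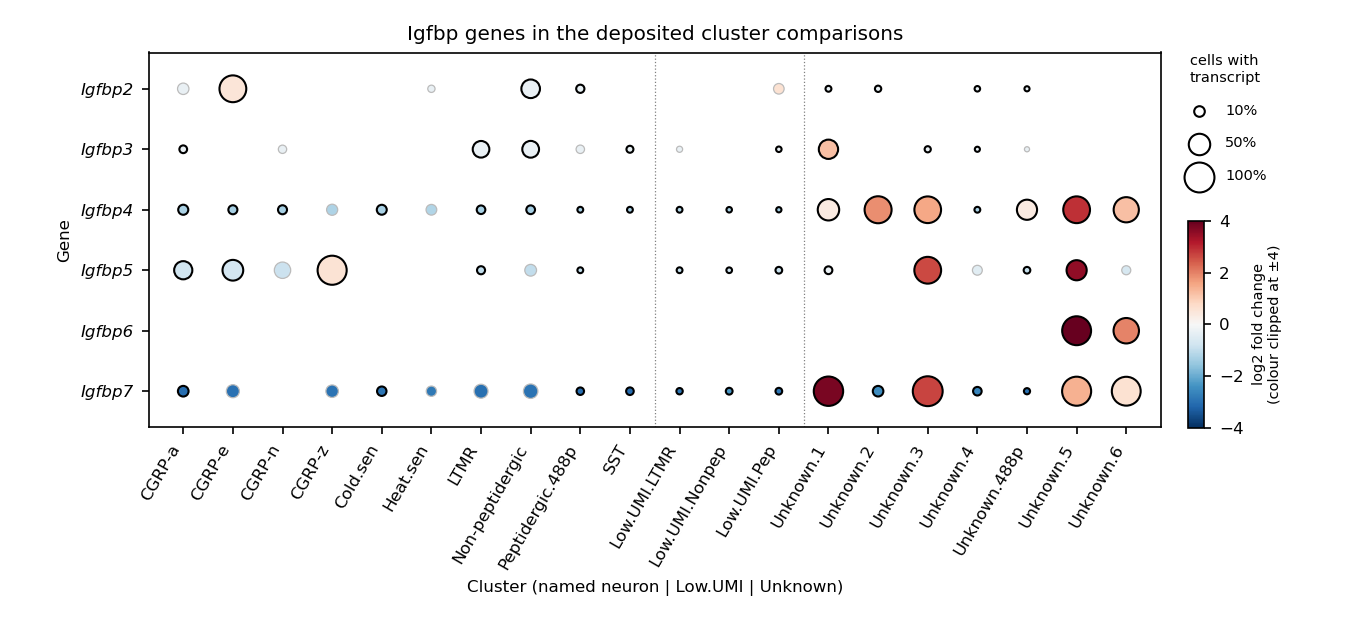
Igfbp genes (rows) in the 20 clusters (columns, with dotted lines between named neuron, Low.UMI and Unknown clusters). Dot area grows with the share of the cluster's cells with the transcript, colour is the log2 fold change against all other cells (clipped at ±4), a black edge marks a called pair, a grey edge a pair not called, and no dot a pair that the table does not list. The 2 called red dots among the neuron clusters are Igfbp2 in CGRP-e and Igfbp5 in CGRP-z; the other 15 lie in Unknown clusters.

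The table also fixes how many cells carried each transcript. The share of all cells in each cluster was solved from the deposited shares, and from it the overall share of cells with a gene. Igfbp7 was in 23.7% of all cells, Igfbp4 in 21.3%, Igfbp5 in 17.5%, Igfbp2 in 15.9%, Igfbp3 in 10.7% and Igfbp6 in 4.90%. Each value was solved separately from every cluster in which the gene was listed, and the SD over those clusters was 0.0222 to 0.0331 percentage points, so neighbours in this order were further apart than that spread. The spread covers rounding and not variation between mice. Shares depend on depth and do not rank the genes by level.

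Igfbp4, Igfbp5 and Igfbp7 were higher together in 2 clusters, Unknown.3 and Unknown.5, and the sequence just before their start sites is shown for these members. The 100 bases before the start in RefSeq (build GRCm38.p6; no source used here names the build of the deposited values) are written 5′ to 3′ on the gene's strand, with capitals on either strand for the TATA box letters TATAAA, for the related letters TTTAAA and for the GC box letters GGGCGG. All 6 members matched a RefSeq entry by symbol.
Igfbp4 (chr11:99041144-99041243, plus strand): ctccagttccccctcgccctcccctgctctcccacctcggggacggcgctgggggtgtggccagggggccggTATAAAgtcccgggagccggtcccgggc
Igfbp5 (chr1:72874866-72874965, minus strand): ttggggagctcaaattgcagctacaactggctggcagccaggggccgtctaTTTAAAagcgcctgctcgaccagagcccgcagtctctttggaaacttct
Igfbp7 (chr5:77408046-77408145, minus strand): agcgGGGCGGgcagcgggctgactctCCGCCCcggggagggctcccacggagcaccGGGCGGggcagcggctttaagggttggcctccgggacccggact

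These upstream stretches do not share 1 of the searched motifs. The TATA box letters began at position -28 of Igfbp4, counted from the start site, and TTTAAA began at -49 of Igfbp5. These positions depend on the start taken. The RefSeq start lay 19 bases from the nearest start in a second annotation, GENCODE, for Igfbp5, 4 for Igfbp7 and 0 for Igfbp4. Igfbp7 held only GC box letters. Of 32851 RefSeq windows of 300 bases, 13.6% held the TATA box letters, 13.2% held TTTAAA and 35.7% held the GC box letters on either strand. These windows run from 250 bases before the start to 50 after it. They are longer than the printed stretches, so their percentages are not rates for 100 bases. The GC content of the stretches was 75% for Igfbp4, 55% for Igfbp5 and 77% for Igfbp7. These are descriptions of letters, and no value in the table measures promoter use. In the RefSeq order of protein-coding genes, Igfbp2 and Igfbp5 are direct neighbours on chromosome 1; no cluster had both of them higher.

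Igfbp7 codes for a binding protein with weak affinity for the growth factors that is known from vascular basement membrane. In the authors' deposited table it was in 96.4% of Unknown.1 cells and 16.3% of other cells, with a log2 fold change of 3.80. By fold change it ranked 5 of 1663 higher genes in these endothelial-like cells. In the mural-like Unknown.3 the authors' deposited table gave 99.7% of cells against 20.8% and a log2 fold change of 2.69. Both fibroblast-like clusters had it nearly as often but with smaller fold changes, namely 94.2% of cells and 1.41 in Unknown.5, and 92.9% and 0.62 in Unknown.6, in the authors' deposited table. Detection was thus above 90% in all 4 higher clusters, while their fold changes ran from 0.62 to 3.80.

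Outside those clusters Igfbp7 was in fewer cells. In the 9 neuron clusters with a listed value it was in 3.5 to 21.1% of cells, with log2 fold changes from -3.08 to -2.84 in the authors' deposited table. The highest of these shares, in Non-peptidergic (21.1% against 23.8%) and LTMR cells (19.4% against 23.8%), lay close to those of the other cells in the authors' deposited table; 4 of the 9 pairs were lower and 5 were not called. In the 3 Low.UMI clusters the authors' deposited table gave 1.7 to 2.3% of cells, all lower. Satellite-glia-like Unknown.2 (9.9% of cells, log2 fold change -2.52), Schwann-like Unknown.4 (5.5%, -2.64) and macrophage-like Unknown.488p (1.4%, -3.02) were lower as well in the authors' deposited table. Only CGRP-n was not listed, and the overall share then leaves 31.4% of CGRP-n cells with the transcript, above the 23.7% of all cells, give or take 2.64 percentage points for rounding. Of all cells with Igfbp7, 37.3% lay in Unknown.1.

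Igfbp3 codes for the main carrier of the growth factors in blood. It was higher in 1 cluster, the endothelial-like Unknown.1, with 39.9% of cells against 7.8% of other cells and a log2 fold change of 1.20 in the authors' deposited table. Its detection among endothelial-like cells was well below that of Igfbp7. Unknown.1 held 34.1% of all cells with Igfbp3. In the authors' deposited table it was in 1.4% of mural-like cells, 0% of Schwann-like cells and 0% of macrophage-like cells, where the last pair was not called.

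Neurons carried Igfbp3 unevenly. Non-peptidergic cells, the Mrgprd-type nociceptors, had it in 29.4% of cells against 9.7% of other cells, and LTMR cells (low-threshold mechanoreceptors, touch neurons) in 28.8% against 10% in the authors' deposited table. Both pairs had a negative log2 fold change (-0.26 and -0.25 in the authors' deposited table), so they were called lower although more of their cells had the transcript. The other 4 listed neuron clusters, SST, CGRP-a, CGRP-n and Peptidergic.488p, had Igfbp3 in 2.6 to 5.2% of cells, and Low.UMI.Pep and Low.UMI.LTMR in 0.5% and 1.3%, in the authors' deposited table. In the 8 clusters with no listed value the mean share was 9.54%, give or take 0.28 percentage points.

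Igfbp4 codes for a binding protein that is cut by the protease PAPP-A, which frees the growth factor. It was the member listed in all 20 clusters, and it was higher in 6 of the 7 Unknown clusters. Satellite-glia-like Unknown.2 had it in 80.9% of cells against 15.4%, with a log2 fold change of 1.87 in the authors' deposited table, and held 34.1% of all cells with Igfbp4. No other member was higher in Unknown.2. The largest fold change was in fibroblast-like Unknown.5, at 2.93 with 79.5% of cells against 19.9% in the authors' deposited table. The authors' deposited table further gave 1.54 for mural-like Unknown.3 (78.9% of cells) and 1.20 for Unknown.6 (70.2%). Endothelial-like and macrophage-like cells followed at 0.34 (49.9%) and 0.36 (43.8%) in the authors' deposited table.

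Schwann-like Unknown.4 was the exception among the Unknown clusters. Igfbp4 was in 0.9% of its cells against 21.9% of other cells there, with a log2 fold change of -1.31 in the authors' deposited table, so the glia-like clusters Unknown.2 and Unknown.4 lay on opposite sides. Among the 10 named neuron clusters Igfbp4 was in 0.9 to 11.2% of cells, with log2 fold changes from -1.37 to -1.22 in the authors' deposited table, and 8 of the 10 pairs were lower. Together these neuron clusters held 11.4% of the cells with Igfbp4, the 7 Unknown clusters 88.1% and the 3 Low.UMI clusters 0.53%.

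Igfbp5 codes for a binding protein that attaches to extracellular matrix. It was the only one of the 6 called higher both in neurons and outside them. Fibroblast-like Unknown.5 had a log2 fold change of 3.55, with 43.7% of cells against 16.8% in the authors' deposited table, and mural-like Unknown.3 had 2.63, with 79.6% against 15.1%. In CGRP-z neurons the authors' deposited table gave 94.4% of cells against 16.4% and a log2 fold change of 0.59. Detection and fold change were thus in opposite order across the 3 higher clusters, with CGRP-z first by share of cells and Unknown.5 first by fold. The other fibroblast-like cluster, Unknown.6, had Igfbp5 in 6.4% of cells (log2 fold change -0.66, not called, in the authors' deposited table).

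The remaining CGRP clusters had Igfbp5 in more cells than the rest but at a negative fold change. In the authors' deposited table it was in 46.5% of CGRP-e cells against 16.1% (log2 fold change -0.74) and in 35.1% of CGRP-a cells against 16.1% (-0.81), both called lower. CGRP-n followed with 27.9% against 17.1% and -0.87, not called, in the authors' deposited table. LTMR (4.5%) and Peptidergic.488p (0.9%) were lower both in share of cells and by fold in the authors' deposited table, and Non-peptidergic (12.9%) and Unknown.4 (8.2%) were not called. In Unknown.1, Unknown.488p and the 3 Low.UMI clusters Igfbp5 was in 0.7 to 4% of cells, all called lower. The 7 listed neuron clusters held 45.5% of all cells with Igfbp5. Cold.sen, Heat.sen, SST and Unknown.2 had no listed value, and their mean share was 21.4%, give or take 0.49 percentage points.

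Igfbp2 codes for a binding protein with an integrin-binding motif. It was called higher in CGRP-e neurons, in 79.8% of cells against 12.8% of other cells, with a log2 fold change of 0.51 in the authors' deposited table. By fold change it ranked 340 of 902 higher genes there. CGRP-e held 23.0% of all cells with Igfbp2. Non-peptidergic cells had it in 36.9% against 14.8% and a log2 fold change of -0.26 in the authors' deposited table, called lower. The reverse was seen in Low.UMI.Pep, where the log2 fold change was 0.59 but the share of cells was 9.9% against 16.9%, not called, in the authors' deposited table.

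Igfbp2 was nearly missing from the Unknown clusters with a listed value. In the authors' deposited table it was in 1.6% of Unknown.2, 1% of Unknown.1, 0.5% of Unknown.4 and 0% of Unknown.488p cells, each against 16.2 to 17.4% of other cells and each called lower. Among neurons the authors' deposited table gave 3.1% of Heat.sen and 12% of CGRP-a cells, both not called, and 4.8% of Peptidergic.488p cells, called lower. A further 10 clusters had no listed value, and with a mean share of 18.2% (give or take 0.24 percentage points) they held 47.8% of all cells with Igfbp2. Which of the 10 held them could not be solved.

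Igfbp6 codes for a binding protein that prefers IGF2. It had the narrowest listing, with values in both fibroblast-like clusters and in no other. In Unknown.5 it was in 93.2% of cells against 2.7% of other cells and was the first of 892 higher genes by fold change, at 5.69 in the authors' deposited table. In Unknown.6 the authors' deposited table gave 71.6% against 3.7% and a log2 fold change of 1.99. Unknown.5 held 45.9% of all cells with Igfbp6 and both clusters together 72.1%. In the other 18 clusters the mean share was 1.43%, give or take 0.10 percentage points, and they held 27.9% of all cells with Igfbp6. The mean does not give the share in any single one of them.

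**Figure D2:**
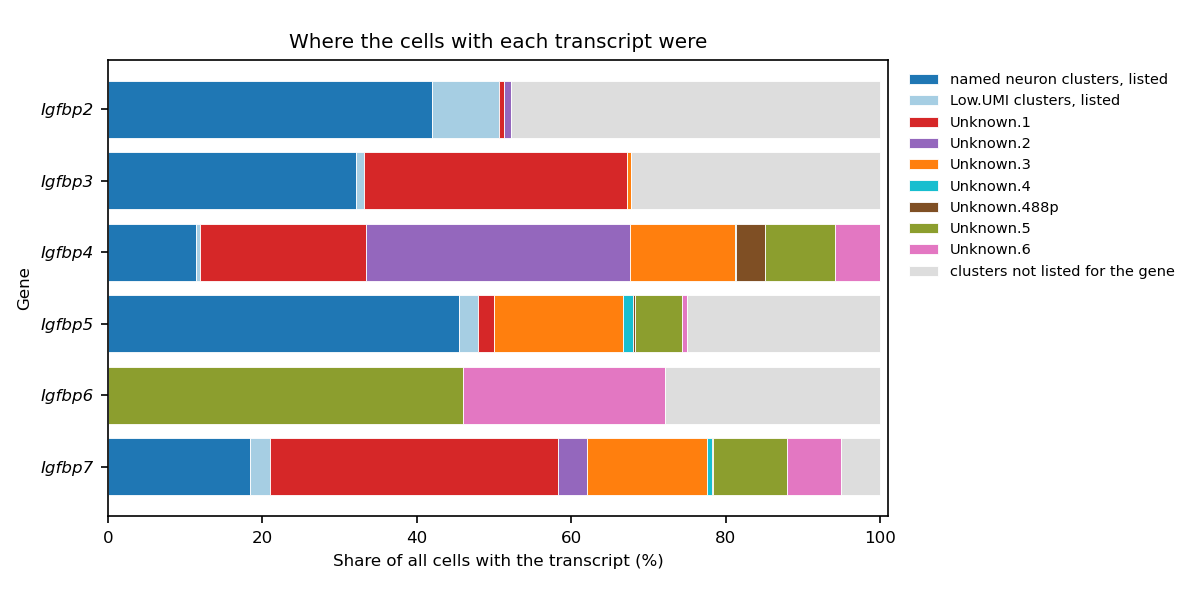
Share of all cells with each transcript (x axis, percent) that lay in each Unknown cluster, in the listed named neuron clusters, in the listed Low.UMI clusters and in the clusters not listed for that gene (grey). Unknown.1 is the largest single Unknown cluster for Igfbp3 (34.1%) and Igfbp7 (37.3%), Unknown.2 for Igfbp4 (34.1%) and Unknown.5 for Igfbp6 (45.9%), while 47.8% of the cells with Igfbp2 lie in clusters without a listed value.

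Fold change and share of cells went in opposite directions in 7 of the 79 listed pairs, of which 5 were called lower. All 5 lay in named neuron clusters, namely Igfbp2 in Non-peptidergic, Igfbp3 in Non-peptidergic and LTMR, and Igfbp5 in CGRP-a and CGRP-e. This was common among the genes of those clusters. Of all genes called lower, 55.1% in CGRP-a, 77.4% in CGRP-e, 65.8% in LTMR and 59.6% in Non-peptidergic were nonetheless detected in more cells inside the cluster than outside it, by percentage. In these 5 pairs "lower" gives the sign of the average log2 fold change against the mixture of other cells. It does not mean fewer cells with the transcript. The calls did not follow the size of the fold change. In the authors' deposited table, Igfbp7 in Non-peptidergic had -2.96 with 21.1% of cells against 23.8% and was not called. Igfbp3 there had -0.26 with 29.4% against 9.7% and was called. Whether the deposited p bears on the negative sign in these pairs was not tested. Depth per cluster moves shares of cells too and is not in the table; its part was not tested.

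**Figure D3:**
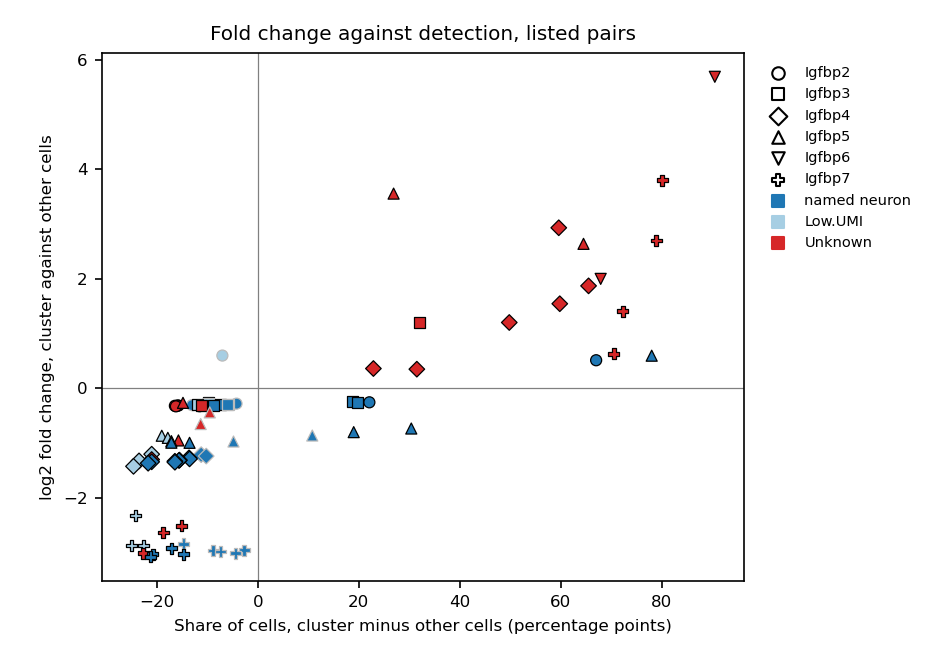
Each point is 1 of the 79 listed pairs: the difference in the share of cells with the transcript (cluster minus other cells, percentage points, x axis) against the log2 fold change (y axis). Symbols give the gene, colours the kind of cluster, black edges the called pairs. The lower right part holds 6 pairs, all of neuron clusters, in which more cells carried the transcript while the average level was lower, and the upper left part holds Igfbp2 in Low.UMI.Pep.

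The growth factors that these proteins bind were listed in few clusters. A list of 22 genes of the IGF system held ligands, receptors, adaptors, and proteases of binding proteins with their inhibitors. It also held Igfals, Tmem219 and the genes of the IGF2 mRNA binding proteins. Of these 22 genes 11 were in the table, and 24 of their 220 pairs were higher (10.9%) and 31 lower (14.1%). For all genes these percentages were 10.6% and 15.9%. Both ligands in the table were higher in fibroblast-like cells. Igf1 was in 66.7% of Unknown.6 cells against 2.5% (log2 fold change 1.98), in 25.8% of Unknown.5 cells (1.81) and in 36.3% of macrophage-like Unknown.488p cells (1.52) in the authors' deposited table. Igf2 was listed for Unknown.5 alone, in 19.5% of its cells against 0.7% and at 0.86 in the authors' deposited table. Unknown.5 was the cluster with both ligands and 4 binding protein genes higher.

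Receptor transcripts were found in more cells than those of the ligands. Igf1 was in 3.65% and Igf2 in 1.15% of all cells, while Igf1r, the receptor through which both ligands signal, was in 54.7%, Insr in 33.7% and Igf2r in 25.6%. Igf1r was higher in CGRP-z (log2 fold change 0.93, in 100% of cells), CGRP-a (0.54, 99.5%) and CGRP-e (0.34, 99.4%) in the authors' deposited table. It was also called higher in Unknown.2 (0.35), where its share was close to that of other cells (55.5% against 54.7%) in the authors' deposited table. The 4 clusters with Igf1r lower were Peptidergic.488p (34.2% of cells) and the 3 Low.UMI clusters. The latter had it in 6.5 to 10.9% of cells in the authors' deposited table. CGRP-z and CGRP-e, where Igfbp5 and Igfbp2 were higher, are thus among the clusters with Igf1r higher, as is CGRP-a, where no member was. Igf1r had no listed value in 11 clusters, named neuron clusters among them. The mean share of those 11 was 76.3%, give or take 0.27 percentage points, above the 54.7% of all cells. Igf2r, which takes up IGF2 for degradation, was higher in CGRP-z (0.33, in 79.4% of cells against 24.9%) and lower in Non-peptidergic (-0.25) in the authors' deposited table. Insr, the insulin receptor gene, was higher in endothelial-like Unknown.1 alone (1.24, in 49.8% of cells against 32%) and lower in 7 clusters in the authors' deposited table. In 4 of those 7 it was nonetheless in more cells than outside, namely Non-peptidergic (70.6% against 31.6%), LTMR (68.6% against 32.2%), CGRP-e (62.9% against 32.2%) and CGRP-n (61.4% against 32.6%) in the authors' deposited table, each a larger share than in Unknown.1.

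Among the adaptors that act below these receptors, 12 of 37 listed pairs were higher (32.4%) and 19 lower (51.4%). Of the listed pairs of all genes, 34.6% were higher and 51.9% lower. These percentages are over listed pairs only. Those given for the whole lists are over all pairs, so they cannot be set beside these. Grb10, which dampens receptor signalling, was higher in 6 clusters, at 1.38 in Unknown.1, 1.07 in Unknown.5, 0.86 in Unknown.6, 0.57 in CGRP-z, 0.45 in Heat.sen and 0.37 in Unknown.2 in the authors' deposited table. It was lower in 9, from -0.72 in SST to -0.27 in Unknown.4 in the authors' deposited table. CGRP-e, CGRP-n, Cold.sen and Unknown.3 had no listed value of Grb10. Their mean share was 57.0%, give or take 0.61 percentage points, above the 27.6% of all cells. Irs2, a docking protein of both receptors, was higher in Unknown.3 (1.09) and Unknown.6 (1.02) and lower in 3 clusters, among them Unknown.1 (-0.41), in the authors' deposited table. LTMR, another of the 3, had it in more cells than outside (70.2% against 32.9%) in the authors' deposited table. The 12 clusters without a listed value of Irs2 had a mean share of 48.1%, give or take 0.19 percentage points, above the 34.4% of all cells. Stc1, known as an inhibitor of PAPP-A, was higher in Unknown.1 (0.32, in 12.6% of cells against 0.3%) in the authors' deposited table. Tmem219, a receptor for Igfbp3 itself, was higher in satellite-glia-like Unknown.2 (0.54) in the authors' deposited table. Pappa and Pappa2, the proteases, were listed for no cluster, which does not show that they were absent.

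Other proteins carry a domain like the amino-terminal domain of the binding proteins, among them the matrix proteins of the Ccn family and the Htra proteases. Of 13 such genes 7 were in the table, with 18 of 140 pairs higher (12.9%) and 33 lower (23.6%), against 10.6% and 15.9% for all genes. Crim1, a membrane protein that binds growth factors, was higher in Unknown.1 (2.23, in 77.8% of cells), Unknown.3 (1.50) and Unknown.5 (0.98), and lower in 12 clusters, in the authors' deposited table. In the authors' deposited table, 2 of those 12 had it in more cells than outside, LTMR (72.8% against 20.4%) and Non-peptidergic (60.4% against 20.3%). Ccn1 was higher in Unknown.2 (2.08, in 64.6% of cells), Unknown.1 (1.55) and Unknown.3 (0.41) and lower in 9 clusters, and Ccn2 was higher in Unknown.5 (1.69) and 3 further Unknown clusters, in the authors' deposited table. Htra1 was higher in Unknown.6 (1.74, in 81.6% of cells), Unknown.2 (1.14, 66.4%), Unknown.3 (0.89) and Unknown.1 (0.84) and lower in 12 clusters in the authors' deposited table. Of those 12, CGRP-n had it in more cells than outside (60.7% against 33%) in the authors' deposited table. The 4 clusters with no listed value of Htra1 were CGRP-a, CGRP-e and CGRP-z neurons and Unknown.5. Their mean share was 75.1%, give or take 0.63 percentage points, above the 34.1% of all cells. Htra3 was higher in Unknown.6 (1.17) and Unknown.5 (1.13) in the authors' deposited table. Esm1 was higher in Unknown.1 (0.63), and Ccn3 was the 1 gene of this list higher in a neuron cluster, Peptidergic.488p (0.27, in 30.7% of cells against 9.2%), in the authors' deposited table.

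**Figure D4:**
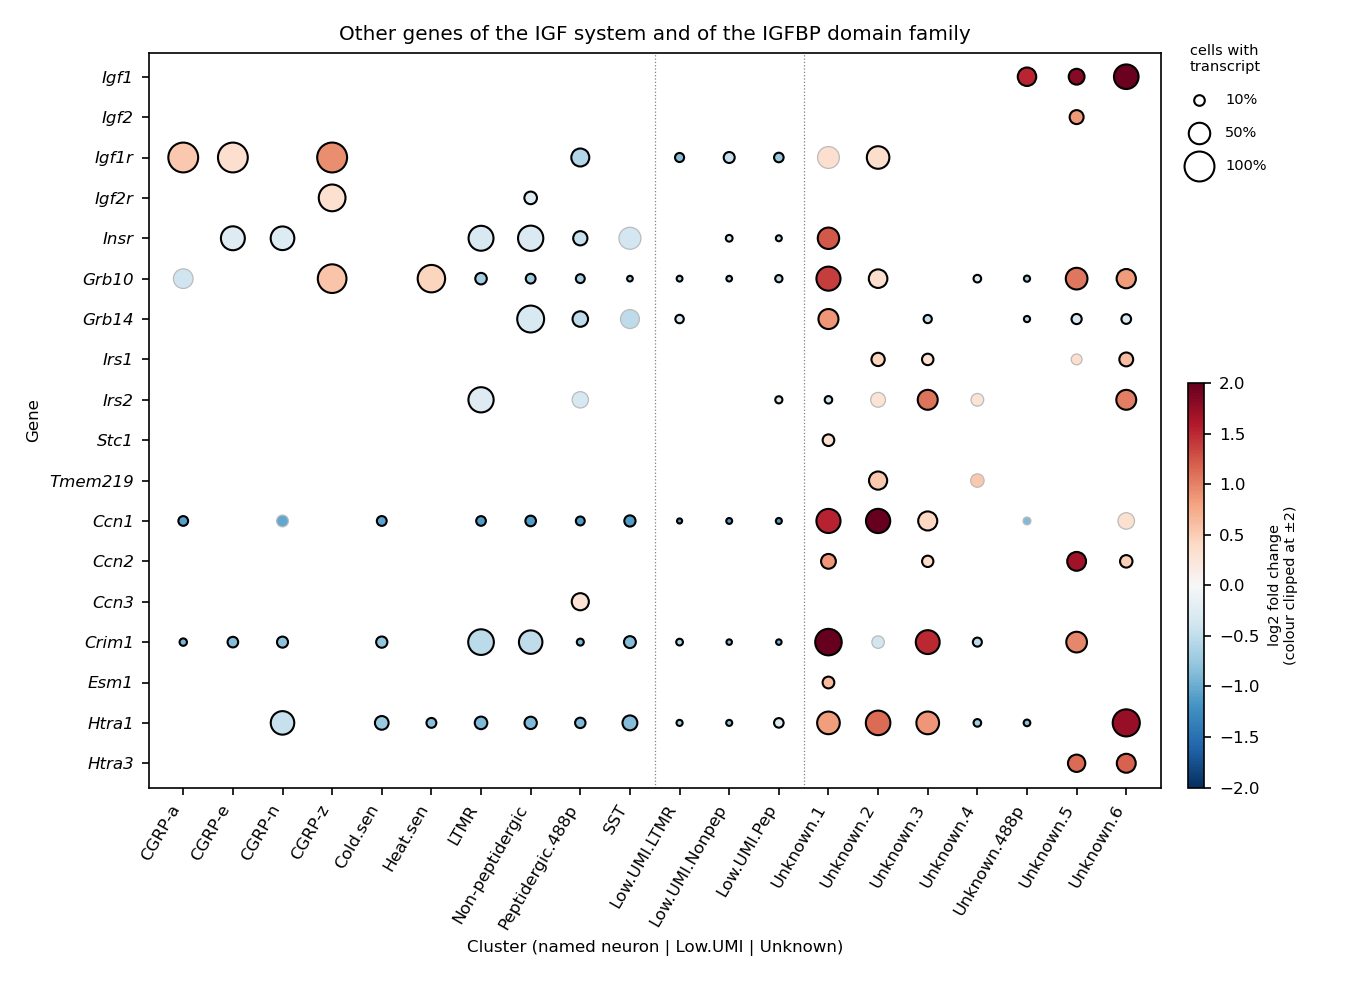
Genes of the IGF system (upper 11 rows) and other genes with an IGFBP-type domain (lower 7 rows) in the 20 clusters, drawn with dot area for the share of cells, colour for the log2 fold change (clipped at ±2) and a black edge for called pairs. Igf1 and Igf2 have dots only in Unknown.488p, Unknown.5 and Unknown.6. Among the clusters listed for it, Igf1r has its largest dots in CGRP-a, CGRP-e and CGRP-z.

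For each member the 3 genes of most similar log2 fold change across clusters were named by Pearson correlation over the clusters listed for both. The points share cells and each cluster's other cells, so these values describe the table and carry no p. Igfbp7 was most like the chemokine gene Cxcl12 (r = 0.99 over 16 clusters), Rbpms (0.98 over 19) and the basement membrane collagen gene Col4a2 (0.98 over 16). Igfbp4 was most like Hmgn1 (0.98 over 17), the cell cycle gene Ccnd1 (0.92 over 18) and Kdm6b (0.91 over 16), and Igfbp5 like Plce1 (0.96 over 14), Gpc6 (0.92 over 13) and Cald1 (0.89 over 14). Igfbp3 was most like Eng, Abcb1a and Shank3 (all r = 1.00, over 10, 11 and 10 clusters), where Unknown.1 was the only cluster with a positive value of Igfbp3. Igfbp2 was most like C1qtnf7 (1.00 over 8), the neurotrophin receptor gene Ngfr (0.99 over 8) and the peptide gene Cartpt (0.98 over 9). Only CGRP-e (0.51) and Low.UMI.Pep (0.59, not called) had a positive value of Igfbp2 in the authors' deposited table. Its remaining listed values lay between -0.33 and -0.26, so these correlations rest on few clusters. Igfbp6, listed in 2 clusters, was below the minimum of 8 and was not compared.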

How the data were processed

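Antibody-sorted mouse ganglion cells were profiled with a droplet 3′ library kit, per the labels' protocols. The submitters' processing notes name Seurat; aligner, build, annotation, cell filters, clustering and doublet treatment have no statement in the sources used here. Per the file headers, the authors deposited for each gene and cluster a p-value before and after adjustment, a mean log2 fold change and detection inside and outside the cluster as a fraction of cells (printed as percent). The deposited adjusted p-value was 32285 times the p-value, to a maximum of 1, which 5330 pairs reached. No value carries a sample, so depth per sample is unknown and samples were not compared.

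Calls used an adjusted p under 0.05. Background percentages are over the 9229 genes of the table, per cluster. Cluster shares came from a least-squares solution on 6748 genes that had differences of at least 5 percentage points (residual 0.0274 points), in Python 3.11.15 with numpy 2.4.6 and pandas 2.3.3, after tests on simulated data. Limits on mean shares in unlisted clusters add the rounding of the deposited fractions. Named genes were all members, the ligands, receptors and 6 largest pairs of each list, and for each member the 3 most alike genes, over at least 80% of its clusters and at least 8, without predicted genes. Further list genes were named to cover each role. The members and lists were chosen with earlier results of these data known. Alternatives dropped or tightened the call filter, changed the weight minimum, changed the correlation, and, added after seeing the data, left out the Low.UMI clusters.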

Additional observations from a re-analysis of the deposited data

How the results depend on the processing

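The 17 higher pairs of member and cluster numbered 12 to 18 over the alternatives. The 44 lower pairs numbered 61 without a p filter and 23 at an absolute log2 fold change of at least 1. They numbered 8 where the gene had to be in at least 25% of cells on 1 side. Where the share of cells had to differ in the same direction they numbered 39. Without the Low.UMI clusters, an alternative chosen after seeing the data, they numbered 34. At a fold change of at least 1, the IGF system list went from 24 to 8 higher and from 31 to 0 lower pairs, and the domain list from 18 to 9 higher and from 33 to 9 lower; with at least 25% of cells the latter had 16 lower pairs. Igfbp2 was higher in 0 clusters at that fold change and in 2 without a p filter, the second being Low.UMI.Pep. The overall share of cells with Igfbp5 was 17.5% both over all clusters and from CGRP-z alone, where the value moved by more than its spread over clusters. The most alike genes depended on the measure: with Spearman's correlation 0 of the 3 named genes stayed for each of the 5 members compared. No paired analysis was possible because the table names no sample. Neither depth nor cell numbers are in the table, so counting error could not be given.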
